A study of Rana omeimontis with 6 samples.

Results

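Transcripts of islet and gut peptide hormones were examined in liver libraries of tadpoles of the frog Rana omeimontis. The rows of the expression matrix were taken by the name of their best-matching protein, whatever their level: insulin or preproinsulin, and any name holding glucagon, somatostatin, pancreatic polypeptide, islet amyloid polypeptide, cholecystokinin or ghrelin, without receptors. Of 121726 rows, 8 met this rule. They covered 6 of the 7 hormones searched, with 1 row each for insulin, pancreatic polypeptide, ghrelin and cholecystokinin and 2 rows each for glucagon and somatostatin. No row carried the name of islet amyloid polypeptide (0 of 121726), so that hormone has no value here.

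The series compared 3 liver libraries made after the tadpoles had accumulated fat in the course of development with 3 made before, all from animals collected in the Anzihe Natural Reserve. No genotype, treatment, age or sex is given in the labels, nor whether a library came from 1 animal or from several. The p-values therefore speak only to the variation among these 6 libraries, part of which may be technical. Values are FPKM (fragments per kilobase of transcript, scaled to the mapped fragments of the library), a level per unit of length, and differences are after minus before on log2(FPKM + 1), which understates the change of low rows.

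Islet hormones are made by endocrine cells scattered through the pancreas. Insulin from beta cells promotes the storage of glucose and lipid, glucagon from alpha cells promotes glucose release by the liver, somatostatin from delta cells restrains both, and pancreatic polypeptide comes from a further islet cell type. Ghrelin is best known from the stomach and cholecystokinin from the small intestine. Somatostatin, ghrelin and cholecystokinin are also made outside the pancreas, by endocrine cells of the gut or by neurons. The liver is the first organ reached by the blood that leaves the pancreas and the gut, but hepatocytes are not known as a source of these hormones.

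Transcripts of genes known from exocrine pancreas and stomach were abundant in these libraries, which are labelled as liver. The 55 rows named as exocrine pancreas markers, such as trypsins, chymotrypsins and pancreatic lipase, took 26.6% to 34.4% of the summed FPKM in the after libraries and 22.6% to 35.0% in the before libraries. Of 16 such genes sought, 15 were matched and 13 passed the filter on low values, and the most abundant was a trypsin at 135422 to 219212 FPKM. Of 16 gut epithelium genes sought, 11 were matched and 8 passed the filter, and some of them are stomach genes. ATP4A of the acid-secreting proton pump had 1214 to 3700 FPKM, against 80.3 to 149 for PGC and 19.0 to 447 for GKN1. The intestinal gene SI of the same list had 13.5 to 155 FPKM. The summed level of the PGC, ATP4A and GKN1 rows was 1651 to 2909 FPKM after and 1948 to 4169 before, most of it from ATP4A. Of 13 hepatocyte genes 10 were matched, with summed values of 7934 to 8952 FPKM after and 5139 to 10642 before, highest in before replicate 3. Of 12 neuron markers 5 were matched, with sums of 1.85 to 2.24 FPKM after and 1.68 to 7.14 before, and none reached 1 FPKM in 3 libraries. The labels do not say whether pancreas or stomach was taken with the liver, and the part of such tissue in the hormone values was not tested. Fewer cells of a type and less RNA per cell cannot be told apart in such bulk samples.

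**Figure D1:**
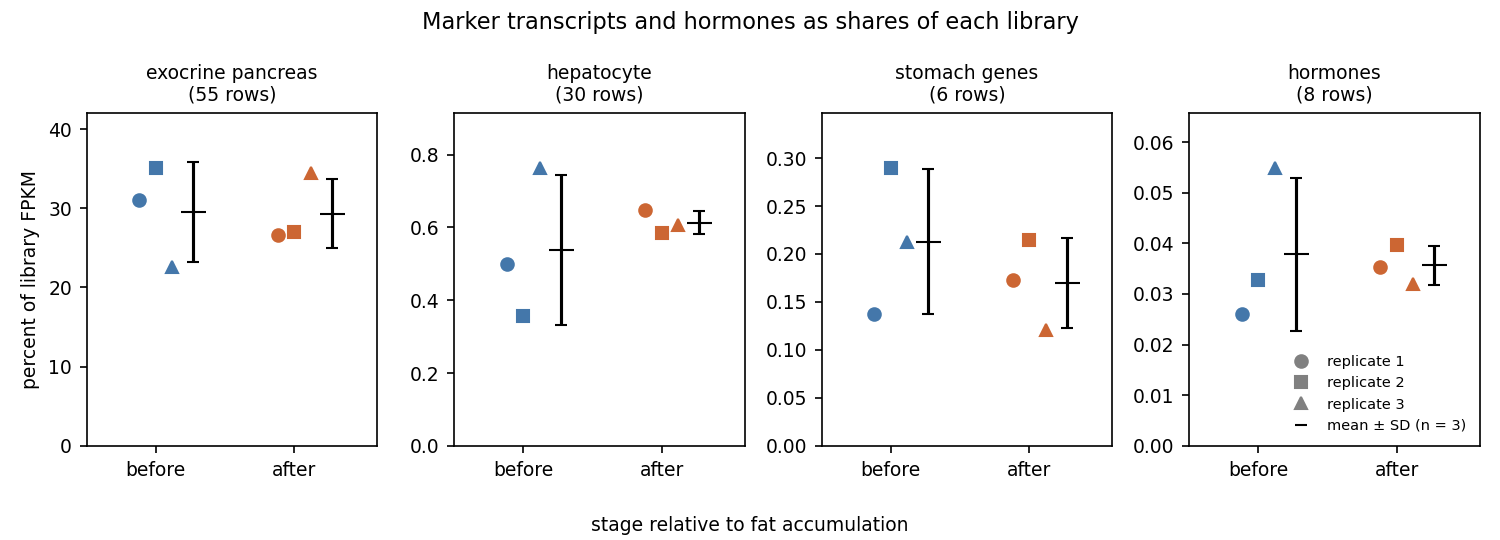
Share of each library's summed FPKM (percent, linear axes from 0) taken by marker rows of exocrine pancreas, hepatocytes and stomach and by the 8 hormone rows, for the 3 before and 3 after libraries, with mean ± SD. The stages overlap in all 4 panels, and before replicate 3 has the lowest exocrine share (22.6%) and the highest hormone share (0.0548%).

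The 8 hormone rows together gave 489, 538 and 438 FPKM in after replicates 1 to 3, and 368, 472 and 765 in before replicates 1 to 3. This was 0.0260% to 0.0548% of a library. Before replicate 3 stood highest and before replicate 1 lowest, with the 3 after libraries between them. By mean level the order was somatostatin (234 FPKM over the 6 libraries), ghrelin (140), pancreatic polypeptide (66.1), insulin (45.6), glucagon (25.3) and cholecystokinin (0.497). Somatostatin and glucagon were each counted as the sum of 2 rows. Most neighbours in this order were not separated: somatostatin was above ghrelin in 5 of 6 libraries, pancreatic polypeptide above insulin in 3 of 6, and insulin above glucagon in 5 of 6. Ghrelin was above pancreatic polypeptide and glucagon above cholecystokinin in 6 of 6, although only the latter pair had ranges that did not overlap.

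Of the 8 rows, 7 reached 1 FPKM in at least 3 libraries and were tested. None of the 7 passed an adjusted p of 0.05 (limma with Benjamini-Hochberg adjustment over 40548 rows), against 8.64% of all rows tested (4.64% of all were higher after), and 2 of 7 had an unadjusted p under 0.05, against 26.6% of all. The 2 were insulin and pancreatic polypeptide, which were also the only hormones whose stages did not overlap, against 32.5% of all rows tested. Their differences ran in opposite directions. The median over the 7 rows was -0.08, the same as the -0.08 over all rows tested.

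Insulin, the beta cell hormone, was measured by a row best matched to preproinsulin of Rana pipiens. It stood at 70.4, 63.6 and 45.8 FPKM in after replicates 1 to 3 and at 23.5, 38.9 and 31.6 in before replicates 1 to 3. Each after library was above each before library, as was so for 15.7% of all rows tested. The means were 59.9 ± 12.7 after and 31.3 ± 7.68 before (SD, n = 3 each), a log2 difference of 0.92 ± 0.258 (SE, 95% interval 0.31 to 1.54), or 1.89-fold, with an unadjusted p of 0.00967 and an adjusted p of 0.075 (limma). An exact permutation test, two-sided, gave p = 0.1, the smallest that 3 against 3 libraries allow. The difference missed the threshold over all rows. It was 0.74 to 1.10 with 1 library left out, at adjusted p of 0.0886 to 0.198, and passed with a filter at 5 FPKM (adjusted p = 0.0476), a fit with fewer rows to adjust over.

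Pancreatic polypeptide, which in mammals is released after meals and restrains pancreatic secretion, was measured by a row named pancreatic hormone. It had 58.2, 25.2 and 42.2 FPKM in after replicates 1 to 3 and 87.4, 77.4 and 106 in before replicates 1 to 3. All after libraries lay below all before libraries, as for 16.8% of all rows tested. The means were 41.9 ± 16.5 after and 90.3 ± 14.6 before (SD, n = 3 each), a log2 difference of -1.16 ± 0.316 (SE, 95% interval -1.91 to -0.40) with an unadjusted p of 0.00866 and an adjusted p of 0.0707 (limma). This too missed the threshold, and it passed with the filter at 5 FPKM (adjusted p = 0.0454) and with quantile normalization (-1.28, adjusted p = 0.0472). The exact permutation test, two-sided, again gave p = 0.1. With 1 library left out the difference was -1.43 to -0.84, at adjusted p of 0.0545 to 0.171.

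**Figure D2:**
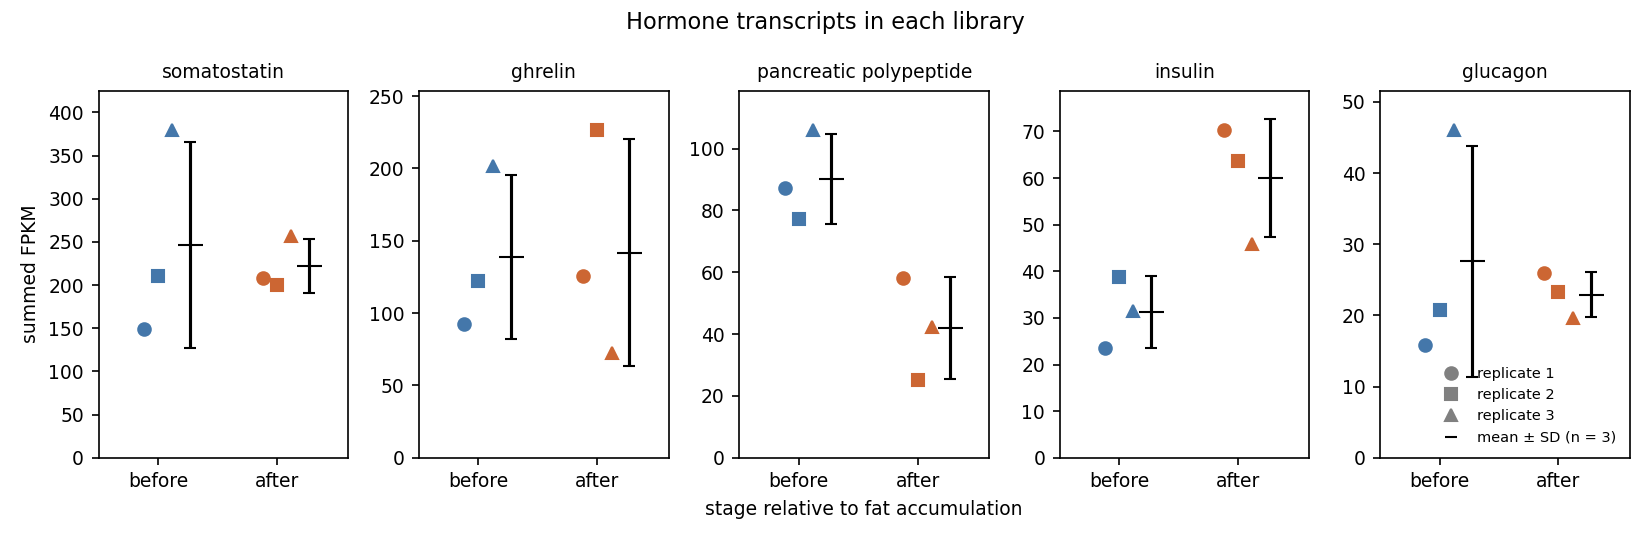
Summed FPKM of each hormone in each library (linear axes from 0), before and after fat accumulation, with mean ± SD of 3 libraries. Insulin lies at 45.8 to 70.4 after and 23.5 to 38.9 before, pancreatic polypeptide at 25.2 to 58.2 after and 77.4 to 106 before, and the stages overlap for somatostatin, ghrelin and glucagon, each with its highest before value in replicate 3.

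Glucagon, the counter-hormone of insulin in glucose balance, was measured by 2 rows, both best matched to proglucagon of Hoplobatrachus rugulosus. Proglucagon is the common precursor of glucagon and of the glucagon-like peptides, so the rows do not tell islet from gut products. Their sum was 25.9, 23.3 and 19.6 FPKM after and 15.9, 20.8 and 46.1 before. The highest and the lowest value were both before libraries, so the stages overlapped. The log2 difference of the sum was -0.12 ± 0.387 (SE, adjusted p = 0.873, limma). Without before replicate 3 it turned to 0.31 (limma, adjusted p = 0.456). Row 1 measured 16.9 ± 2.31 after and 20.0 ± 10.7 before (SD, n = 3 each), with a 95% interval of the log2 difference of -0.97 to 0.72, and row 2 measured 6.05 ± 1.87 and 7.62 ± 5.57, with an interval of -1.29 to 1.04.

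Somatostatin, the inhibitor of insulin and glucagon release, was by the sum of its 2 rows the most abundant hormone in 5 of 6 libraries. Row 1 alone was below ghrelin in after replicate 2 (118 against 227 FPKM) and in before replicate 1 (91.7 against 92.2). Both somatostatin rows were best matched to the somatostatin-1 precursor of Rana catesbeiana. Their sum was 209, 200 and 257 FPKM after and 149, 210 and 380 before. The after values fell inside the range of the before values. The log2 difference of the sum was -0.05 ± 0.338 (SE, adjusted p = 0.944, limma), and without before replicate 3 it was 0.32 (limma, adjusted p = 0.432), while without after replicate 2 it was 0.02. Row 1 measured 149 ± 31.7 after and 168 ± 79.3 before (SD, n = 3 each) and row 2 measured 72.8 ± 10.4 and 78.5 ± 44.6, with 95% intervals of the log2 difference of -0.96 to 0.81 and -0.87 to 0.91.

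The paired rows of these hormones kept only a loose proportion. Somatostatin row 1 was 1.45 to 3.33 times row 2 over the 6 libraries, and glucagon row 1 was 2.01 to 4.11 times row 2. Rows with the same best match can be parts of 1 transcript, isoforms or close copies and can share reads, so the level of a single row is uncertain. The sum is uncertain too: FPKM is a level per unit of length, so adding parts of 1 transcript overstates its level.

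Ghrelin, a hormone that in mammals stimulates feeding and growth hormone release, was measured by a row best matched to ghrelin of Pelophylax nigromaculatus. It had 126, 227 and 72.3 FPKM in after replicates 1 to 3 and 92.2, 122 and 202 in before replicates 1 to 3. The after libraries held both the highest and the lowest value. The means were 142 ± 78.4 after and 139 ± 56.7 before (SD, n = 3 each), a log2 difference of -0.05 ± 0.462 (SE, adjusted p = 0.962, limma) with a 95% interval of -1.15 to 1.05. Leaving out after replicate 2 gave -0.46 and leaving out after replicate 3 gave 0.36 (limma, adjusted p = 0.572 and 0.683), and 0.26 without before replicate 3 (0.803), so that single libraries set the sign. Per 1000 FPKM of the stomach genes PGC, ATP4A and GKN1, ghrelin stood at 52.5, 77.9 and 43.8 after and at 47.3, 29.4 and 68.1 before. The stages overlapped (exact permutation test, two-sided, p = 0.5). This comparison was not among those planned. Most of the stomach sum was ATP4A, and the stomach genes did not move alike. Their log2 differences were -0.56 for ATP4A, 0.38 for PGC and 1.81 for GKN1, none past the threshold.

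Cholecystokinin, which in vertebrates drives gallbladder contraction and pancreatic enzyme release, was near the lower limit of the measurement. Its row, best matched to a cholecystokinin precursor of Sylvirana nigrovittata, was listed at 0, 0 and 0.83 FPKM in the after libraries and at 0.17, 1.98 and 0 in the before libraries. Only before replicate 2 exceeded 1 FPKM. The row did not pass the filter and was not tested.

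**Figure D3:**
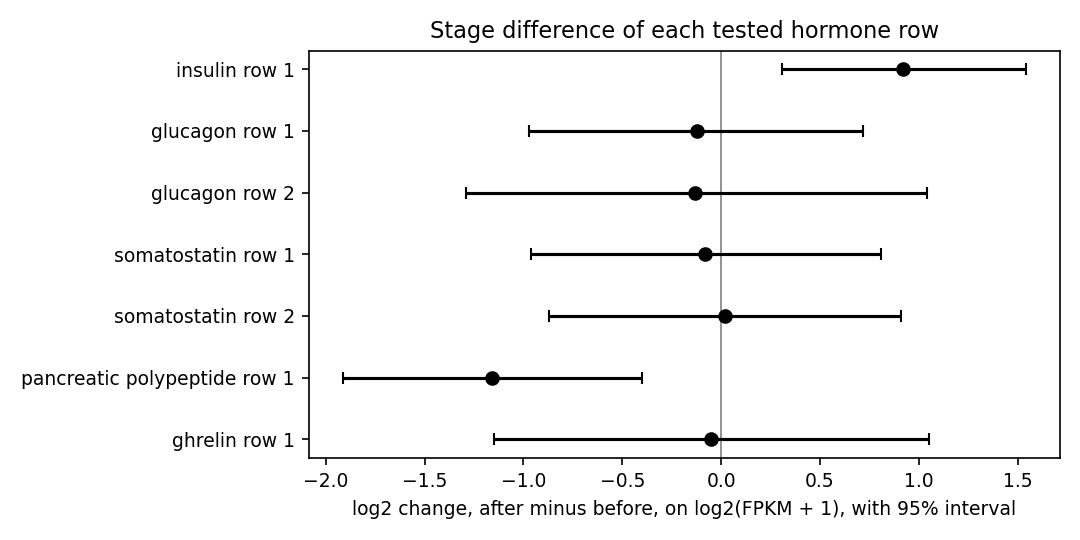
Log2 change, after minus before, of the 7 tested hormone rows on log2(FPKM + 1), with 95% intervals from limma, unadjusted for the number of rows. The intervals of insulin (0.31 to 1.54) and pancreatic polypeptide (-1.91 to -0.40) lie on opposite sides of 0, and the other 5 intervals span 0.

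Ratios between hormones of the same library do not depend on how the library was scaled. They were computed for the 10 pairs of the 5 hormones with tested rows, a comparison chosen after the values were seen, and tested with exact permutation tests, two-sided, for which 0.1 is the smallest p that 3 against 3 libraries allow. Insulin to glucagon was 2.72, 2.73 and 2.34 after and 1.48, 1.87 and 0.685 before, so the stages did not overlap (exact p = 0.1, adjusted over the 10 ratios 0.25). The log2 difference of this ratio was 1.07, and 0.64 without before replicate 3, which had the lowest ratio. Insulin to pancreatic polypeptide was 1.21, 2.52 and 1.09 after and 0.269, 0.502 and 0.298 before, a log2 difference of 2.12 (exact p = 0.1, adjusted 0.25), and 1.74 to 2.40 with 1 library left out. Each of the 2 hormones already separated the stages, in opposite directions. The separation of this ratio and its p were thus fixed in advance and add nothing to the single hormones. The order of the 2 in FPKM follows from the same values. Insulin was below pancreatic polypeptide in all 3 before libraries and above it in all 3 after libraries, by little in after replicate 3 (45.8 against 42.2).

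Somatostatin to pancreatic polypeptide was 3.59, 7.91 and 6.10 after and 1.71, 2.72 and 3.58 before. The lowest after and the highest before ratio nearly touched, and the exact p was again 0.1 (permutation, adjusted 0.25). Glucagon to pancreatic polypeptide was 0.445, 0.924 and 0.464 after and 0.182, 0.269 and 0.435 before, also nearly touching but without overlap (log2 difference 1.06, exact permutation p = 0.1, adjusted 0.25). The log2 differences of glucagon and somatostatin themselves were -0.12 and -0.05. Their ratios to pancreatic polypeptide thus largely repeat its own difference (-1.16), and insulin to glucagon (1.07) that of insulin (0.92). They are not separate results. Insulin to somatostatin overlapped between the stages, with 0.337, 0.319 and 0.178 after and 0.158, 0.185 and 0.0831 before (exact permutation p = 0.2, adjusted 0.286). Of the 10 ratios that of glucagon to somatostatin had the narrowest relative range, from 0.0762 to 0.124 after and 0.0991 to 0.121 before (exact permutation p = 0.9, adjusted 1.0). Glucagon and somatostatin were thus high together in before replicate 3, where insulin, at 31.6 FPKM, lay between the other before libraries.

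**Figure D4:**
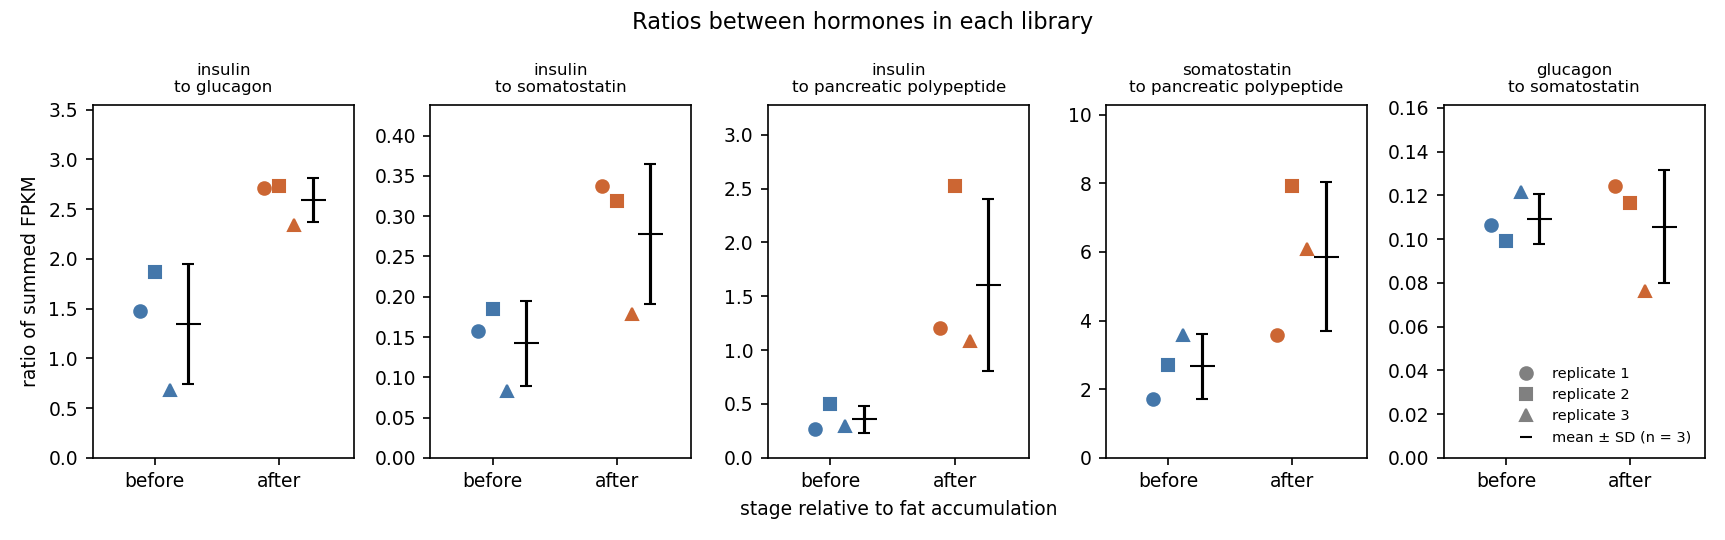
Ratios of summed FPKM between hormones in each library (linear axes from 0), before and after fat accumulation, with mean ± SD of 3 libraries. Insulin to glucagon and both ratios to pancreatic polypeptide are higher in each after library than in any before library, while the stages overlap for insulin to somatostatin and for glucagon to somatostatin.

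Because islets lie within exocrine tissue, each hormone was also set against the summed exocrine markers of its library. Per 100000 FPKM of exocrine markers, insulin stood at 19.1, 17.4 and 9.72 after and at 5.35, 7.69 and 10.01 before, and on this scale after replicate 3 fell just below before replicate 3 (exact permutation p = 0.2). Pancreatic polypeptide stood at 15.8, 6.89 and 8.96 after and at 19.9, 15.3 and 33.6 before, again with an overlap of 1 library (exact permutation p = 0.2). The sizes of the log2 differences, 0.99 and -1.13, were close to those on the deposited scale. The summed markers were led by a trypsin row, and single exocrine genes differed between the stages in both directions (log2 difference 0.71 for CTR and -0.91 for SYCN). The log2 differences of 0.99 for insulin and -1.13 for pancreatic polypeptide therefore apply to this sum only, on which the stages of both overlapped. They were not computed against single exocrine genes. Somatostatin was nearly constant after fat accumulation, at 56.8, 54.5 and 54.6, and spread from 33.9 to 120 before (exact permutation p = 1.0). Before replicate 3 had the lowest exocrine sum and the highest somatostatin, glucagon and pancreatic polypeptide, and the part of its tissue makeup in these values was not tested.

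Genes for processing and packaging peptide hormones were measured at low to moderate levels and none passed. Of 14 sought, 12 were matched and 7 tested, with 0 higher, 0 lower and 0 at an unadjusted p under 0.05 (limma), against 8.64% of all rows past the threshold and 26.6% at an unadjusted p under 0.05, and a median log2 difference of 0.20 against -0.08 over all rows. CHGA, chromogranin A of secretory granules, was the most abundant, at 39.0, 62.8 and 38.1 FPKM after and 38.6, 41.0 and 35.4 before (0.24, adjusted p = 0.573, limma). CPE, the carboxypeptidase that trims prohormones, measured 5.97 ± 2.36 after and 3.43 ± 0.567 before (SD, n = 3 each, 0.60, adjusted p = 0.294, limma). SCG5, the chaperone of prohormone convertase 2, measured 2.62 ± 0.450 and 2.54 ± 0.972 (SD, n = 3 each, 0.06, adjusted p = 0.922, limma). The convertase itself, PCSK2, which cleaves proglucagon and proinsulin, had 0.96, 1.47 and 0.33 FPKM in the after libraries against 0.62, 0.64 and 1.1 in the before libraries, too low to be tested, and no row was matched to PCSK1.

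Transcription factors and glucose-sensing proteins of islet cells were mostly below the filter. Of 15 sought, 10 were matched and 2 were tested, with 0 called (limma) against 8.64% of all rows tested and 0 at an unadjusted p under 0.05 against 26.6%. ISL1, a factor of all islet endocrine cells, had 0.62, 0.84 and 0.43 FPKM after and 1.03, 1.2 and 1.81 before (-0.52, adjusted p = 0.268, limma). All after libraries were below all before libraries, as for 16.8% of all rows tested. The row reached 1 FPKM only in the 3 before libraries and passed the filter only through them. The separation of its stages follows from how it passed and is no result. PDX1, the factor of pancreas formation and beta cells, had 0.26 to 1.05 after and 0.14 to 0.47 before and was not tested.

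Among other gut and neural peptides 1 of 4 tested genes was lower after fat accumulation and 0 higher, of 14 sought and 10 matched, where 8.64% of all rows tested were called in either direction. This was MLN, the precursor of motilin, a hormone of the upper gut that drives contractions between meals. It fell from 25.4, 36.0 and 38.7 FPKM in the before libraries to 17.9, 9.36 and 12.9 in the after libraries, a log2 difference of -1.28 ± 0.287 (SE, adjusted p = 0.0434, limma). The MLN call was lost without after replicate 2 or 3 (adjusted p = 0.12 and 0.126, limma) and without before replicate 1, 2 or 3 (0.0772, 0.113 and 0.11). It was also lost with a pseudocount of 0.1 (0.0519), with no filter on low values (0.115), without the eBayes trend (0.0558) and with the replicate block (0.123). TAC1, the precursor of substance P, ranged from 2.53 to 15.5 after and from 3.24 to 30.1 before (adjusted p = 0.821, limma). Its highest value was in before replicate 3, where the sum of the neuron markers was also highest (7.14 FPKM). Single neuron markers were near the lower limit and did not all follow. NEFL, PRPH and ELAVL4 were highest there, but SNAP25 in before replicate 2 and SYN1 in before replicate 1. TAC1 was chosen after its values were seen, and the part of neurons in them was not tested.

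Receptors of the hormones were low throughout. Of 20 sought, 14 were matched and 7 tested, with 0 called (limma) against 8.64% of all rows tested and 0 at an unadjusted p under 0.05 against 26.6%. Their median log2 difference was 0.12, against -0.08 over all rows. GCGR, the glucagon receptor of hepatocytes, had the highest mean of the matched receptors, with 4.46, 2.71 and 4.07 FPKM after and 3.84, 4.12 and 4 before (-0.09, adjusted p = 0.849, limma). CCKAR, the receptor through which cholecystokinin acts on gallbladder and pancreas, measured 3.20 ± 1.02 after and 2.31 ± 0.534 before (SD, n = 3 each, adjusted p = 0.525, limma). This gene was chosen after its values were seen. INSR, the insulin receptor, was too low to be tested, with 0.34, 0.32 and 0.32 FPKM in the after libraries against 0.97, 0.38 and 0.81 in the before libraries.

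Downstream of insulin and glucagon, 14 of 24 sought genes were tested, with 1 lower and 0 higher, a share near the 8.64% of all rows tested that were called. The gene that fell was IGFBP1, a liver protein that binds insulin-like growth factors and whose transcription insulin represses in mammals. It had 11.9, 18.6 and 14.1 FPKM after and 171, 55.9 and 131 before, with no overlap, and a log2 difference of -2.80 ± 0.422 (SE, adjusted p = 0.0159, limma). The IGFBP1 call was lost without after replicate 2 or 3 (adjusted p = 0.0514 and 0.0653, limma) and without before replicate 1 or 3 (0.0521 and 0.0531), and with the replicate number as a block (0.0694), at log2 differences of -3.27 to -2.47 over all alternatives. CRTC2, a coactivator of glucagon-driven transcription, had 5.17, 7.77 and 6.54 FPKM after and 10.7, 14.4 and 14.7 before (-0.93, adjusted p = 0.0587, limma). IRS2, an adaptor of the insulin receptor, had 0.68 to 0.94 after and 1.77 to 2.26 before (-0.71, adjusted p = 0.112, limma). GSK3B, glycogen synthase kinase-3 beta, went the other way, at 4.38 to 4.76 FPKM after and 2.96 to 4.31 before (0.25, adjusted p = 0.526, limma). CRTC2, IRS2 and GSK3B, chosen after their values were seen, did not pass. The stages did not overlap for 4 of the 14 tested genes, against 32.5% of all rows tested. Of the 14, 3 had an unadjusted p under 0.05 (limma), against 26.6% of all. The median of the 14 log2 differences was -0.04, against -0.08 over all rows. IRS2 reached 1 FPKM only in the before libraries, so it entered the test only through the stage where it was higher. The separation of its stages follows from this and is no result, yet IRS2 is among the 4 and the 3 genes counted above.

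Of the marker genes of the surrounding tissues, 2 of 13 tested exocrine genes fell and 0 rose, where 8.64% of all rows tested were called in either direction. SYCN, syncollin of the zymogen granule, fell from 970 ± 126 to 516 ± 63.8 FPKM (SD, n = 3 each, -0.91, adjusted p = 0.0238, limma), and CLPS, colipase, from 5671 ± 1204 to 3342 ± 246 (SD, n = 3 each, -0.74, adjusted p = 0.0493, limma). Both passed in 1 of 6 fits with a library left out, that without before replicate 3, with adjusted p of up to 0.0835 without after replicate 3 and 0.14 without after replicate 2. The SYCN call was also lost with no filter on low values (0.0616), without the eBayes trend (0.0613) and with the replicate number as a block (0.0812). The CLPS call was lost in 9 of 11 alternatives that kept all libraries, with adjusted p of up to 0.137. The stages did not overlap for 5 of the 13 exocrine genes, against 32.5% of all rows tested, and these went both ways. CTR, a chymotrypsin (0.71, adjusted p = 0.164, limma), and CEL, carboxyl ester lipase (0.46, adjusted p = 0.308, limma), were higher after. PLA2G1B, a phospholipase A2, was lower (-0.79, adjusted p = 0.0591, limma), like SYCN and CLPS. CTR, CEL and PLA2G1B were chosen after their values were seen and did not pass. Of 8 tested gut genes SI, sucrase-isomaltase, rose, and VIL1, villin of the brush border, and SLC5A1, a glucose transporter, fell. SI had 108, 84.3 and 155 FPKM after and 14.5, 33.1 and 13.5 before (2.52, adjusted p = 0.017, limma), and its call was lost without after replicate 3 (0.0665), before replicate 1 (0.0629) or before replicate 3 (0.0518), and with the replicate block (0.0736). VIL1 (-1.46, adjusted p = 0.0304, limma) and SLC5A1 (-1.62, adjusted p = 0.0307, limma) each passed in 1 of 6 fits with a library left out, that without after replicate 2 for VIL1 and that without after replicate 1 for SLC5A1, and otherwise reached adjusted p of up to 0.101 and 0.103. Both calls were also lost with no filter on low values (0.0834 for VIL1, 0.084 for SLC5A1) and with the replicate block (0.0728 and 0.0785). Of 9 tested hepatocyte genes ALB rose, from 45.0 ± 27.8 to 456 ± 94.7 FPKM (SD, n = 3 each, 3.54, adjusted p = 0.0163, limma), and 0 passed as lower. The stages did not overlap for 3 of the 9, against 32.5% of all rows tested, and these went both ways. Like ALB, FGG was higher after (0.67, adjusted p = 0.0928, limma), while HPX was lower (-1.33, adjusted p = 0.0517, limma). FGG and HPX were chosen after their values were seen and did not pass. The ALB call was lost without after replicate 2 (0.063), after replicate 3 (0.0571) or before replicate 1 (0.0512).

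Likeness to each hormone was measured as Pearson's r on log2(FPKM + 1) over the 6 libraries, for 13838 described rows with a mean of at least 1 FPKM. With so few libraries and so many rows, high values arise for any pattern, and they are given as a description. For insulin the nearest row was best matched to cytochrome b of the mouse Mus cervicolor (0.993), followed by serine palmitoyltransferase 3, an enzyme of sphingolipid synthesis (0.987). For pancreatic polypeptide the nearest was the immunoglobulin J chain, which links antibody subunits (0.992). For glucagon the nearest was a row best matched to a Mus musculus protein with no descriptive name (0.986), and RNA-binding protein 8A was among the 5 nearest (0.979). The nearest row to somatostatin was described as AP-5 complex subunit zeta-1 (0.984) and that to ghrelin as the kinase SIK2 (0.989).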

How the data were processed

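Liver RNA was measured in 6 libraries. Per the labels' protocols, Trizol RNA was poly-A selected, fragmented, reverse transcribed from random hexamers and read from both ends by Illumina sequencing. The authors deposited FPKM values for 121726 transcript clusters with a best-matching protein name for 37708. For the assembler, the aligner and the FPKM program: not given in the sources used here. Summed FPKM per library was 1358665 to 1442121, and modal ratios of low values to after replicate 1 were 1.03 to 1.05. The libraries were less alike in the rows at 1 FPKM or more. These numbered 49148 in before replicate 3, against 37208 to 42276 in the others. Read totals and transcript lengths are unknown here, so no counting interval can be given.

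Members and gene lists were chosen with earlier results of these data known, and some name patterns of the lists were widened once the protein names had been seen. The filter kept the 40548 rows that reached 1 FPKM in 3 or more libraries, which entered limma 3.58.1 (R 4.3.3; lmFit, eBayes with trend, two-sided) on log2(FPKM + 1), with Benjamini-Hochberg adjustment over all rows and a threshold of 0.05. Hormone sums replaced their rows in a second fit of the whole table. Ratios were tested with exact permutation tests in scipy 1.17.1. Of 144 symbols in 9 lists, 110 were matched by protein name and 64 tested, the row with the highest mean standing for a symbol. Best matches to mouse, rat or human proteins were left out of the lists. Named genes were all members, up to 4 genes per list past the threshold, a few fixed processing, islet and receptor genes, and rows among the 5 nearest per hormone. Only some of those 5 are named, among them the nearest of each hormone. All other named genes were chosen after their values were seen. No libraries were identical. The fit was tested on simulated data, in which changes of about the size of those of insulin and pancreatic polypeptide were not recovered. Far fewer rows were changed there than passed in these data, which makes the adjustment stricter. That result therefore cannot tell whether the fit finds such changes here. Sequences of these transcripts were not used here.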

Additional observations from a re-analysis of the deposited data

How the results depend on the processing

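The number of hormone rows past the threshold was 0 and stayed 0 under 15 of the 17 alternatives; it was 2 with a filter at 5 FPKM and 1 with quantile normalization. Insulin (0.92) and pancreatic polypeptide (-1.16) kept their direction in all 17, from 0.74 to 1.10 and from -1.43 to -0.84. Insulin passed with the filter at 5 FPKM (0.92) and pancreatic polypeptide with that filter (-1.16) and with quantile normalization (-1.28). For the other hormones the sign was not stable. With 1 library left out, glucagon ranged from -0.43 to 0.31 (row 1 from -0.37 to 0.26, row 2 from -0.56 to 0.37), somatostatin from -0.36 to 0.32 (row 1 from -0.45 to 0.27, row 2 from -0.25 to 0.45) and ghrelin from -0.46 to 0.36. Rescaling to equal totals gave 0.00 for somatostatin and for ghrelin, and quantile normalization gave -0.14 for somatostatin row 2. The cause was not tested. Rows past the threshold over the whole table numbered 3502, against 1067 without a filter and 691 to 1867 with 1 library left out. The 9 lists had 0 to 3 calls in either direction over the alternatives; that of MLN was lost in 9 of 17. With the replicate number as a block, 0 hormone rows passed, insulin was 0.92 (adjusted p = 0.155), and 339 rows of the whole table passed. Deviations of libraries with the same number correlated at -0.005, -0.039 and -0.088, and no library correlated best with its own number. No pairing by number was thus seen, but values so near 0 from 3 libraries per stage cannot exclude a pairing. Low values, such as those of cholecystokinin, are the least precise.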
